A study of Homo sapiens with 9 samples.

Results

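MDA-MB-231 cells that had survived a ferroptosis inducer were compared with vehicle-treated cells, taking both inducers together. MDA-MB-231 is a long-used human line of triple-negative breast cancer. All 9 RNA-seq libraries of the series entered: 3 of cells treated with DMSO (vehicle), 3 of cells treated with erastin (erastin-R) and 3 of cells treated with RSL3 (RSL3-R). The study describes both drug groups as cells that outlived rising concentrations of their agent, and the sample labels give the agent but neither dose nor duration. All groups share the parental line and carry no engineered allele. The labels do not say whether libraries of a group came from separate cultures, so the p-values measure only the spread between these libraries, which may be technical. Survivors were taken as populations, and the response below is their state at harvest.

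The comparison was the mean of the erastin-R and RSL3-R groups, with equal weight for each drug, against vehicle. A gene was called when its adjusted p was under 0.05 and its absolute log2 fold change was at least 1. It was counted as common to both drugs when, in addition, all 6 drug libraries lay on one side of all 3 vehicle libraries in CPM, counts scaled to library size. By this rule 1158 of the 16188 genes tested, out of 58735 genes in the files, were common to both drugs (7.15%).

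Ferroptosis is a death in which iron-dependent peroxidation of membrane phospholipids is not held in check. Erastin blocks system xc-, the exchanger that imports cystine for glutathione synthesis, and RSL3 inhibits GPX4, the glutathione-dependent enzyme that reduces phospholipid hydroperoxides. Cells short of cystine or under oxidative load can phosphorylate the initiation factor eIF2α, which slows general translation while favouring that of ATF4. ATF4 pairs with C/EBP proteins on composite promoter elements and induces amino acid transporters, amino acid synthesis and further stress factors. NRF2, the other main arm, binds antioxidant response elements in genes for glutathione, thioredoxin and iron storage.

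Total counts ranged from 15405102 to 17273464 per library, and the biological coefficient of variation was 8.56%. All 14 markers of mesenchymal MDA-MB-231 cells had at least 1 CPM in a group, with a summed level of 7484 to 9103 CPM. Of 10 luminal epithelial markers 7 reached it too, with a summed level of 249 to 334 CPM, and the hormone receptors ESR1 and PGR were among the 3 that did not. The share of counts from mitochondrial genes was 7.97% to 8.93% in vehicle, 5.55% to 7.95% in erastin-R and 9.52% to 10.2% in RSL3-R libraries, so that the drug groups lay on opposite sides of vehicle. The mean share of drug libraries was 8.18% and that of vehicle 8.41%, a difference that did not pass an exact permutation test (two-sided, p = 0.881, n = 6 and 3). The library labelled erastin-R replicate 1 stood apart from the other two of its group, with a mitochondrial share of 7.95% against 5.55% and 5.84%. Without it the common genes numbered 714 higher and 563 lower, against 660 and 498 with all 9 libraries. A position rule over fewer libraries is easier to meet. Leaving out any 1 of the 9 gave 693 to 759 higher and 506 to 569 lower.

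Of the genes tested, 855 were called higher in the drug groups (5.28%) and 610 lower (3.77%), 1465 in all (9.05%). Position alone placed all 6 drug libraries above vehicle for 2740 genes (16.9%) and below it for 2870 genes (17.7%). Both conditions together held for 660 higher genes (4.08%) and 498 lower genes (3.08%), which is 77.2% and 81.6% of the genes called. A further 195 genes called higher and 112 called lower had at least 1 drug library within or beyond the vehicle range, so that the mean rested on some libraries only. The libraries were made from bulk RNA, in which fewer cells of a state and less RNA per cell cannot be told apart.

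The common genes differed in kind between the directions. Among the 660 higher genes 425 were protein coding, 73 antisense and 52 lincRNA genes, and 35.6% in all were not protein coding. Among the 498 lower genes 390 were protein coding, and 21.7% were not. Of all genes tested 19.9% were not protein coding. A mean under 5 CPM in every group was found for 319 of the higher and 172 of the lower genes. The kit does not mark strand, so reads counted for antisense genes may come from the gene on the other strand. The median log2 fold change of the common higher genes was 1.43 for erastin-R and 1.32 for RSL3-R, and that of the lower genes was -1.32 and -1.26. At least a log2 fold change of 1 was reached in each drug by 408 of the higher and 240 of the lower genes.

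Genes of amino acid stress led the increases. ASNS, which makes asparagine, measured 2.09, 1.73 and 2.1 CPM in vehicle, 27, 30.4 and 25.8 CPM in erastin-R and 27.3, 29 and 26.4 CPM in RSL3-R libraries. Its log2 fold change of the mean was 3.81 ± 0.12 (SE), adjusted p = 8.49e-11. The groups did not overlap, and both drugs gave nearly the same level. Of the exons of ASNS 44.6% overlap AC079781.5 on the same strand, so reads there cannot be assigned to one of them, and the level of ASNS is uncertain. GDF15, a secreted stress hormone, measured 9.42, 9.94 and 10.4 CPM in vehicle, 69.1, 103 and 99.7 CPM in erastin-R and 156, 167 and 164 CPM in RSL3-R libraries (3.61 ± 0.13 (SE), adjusted p = 2.14e-10). CHAC1, which degrades glutathione, measured 7.04, 6.61 and 5.3 CPM in vehicle, 24.1, 32.1 and 33.4 CPM in erastin-R and 91.9, 91.9 and 88.2 CPM in RSL3-R libraries (3.04 ± 0.12 (SE), adjusted p = 4.69e-10). For both genes the RSL3-R libraries were the highest and every vehicle library the lowest.

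SLC7A11, the transport subunit of system xc- and so the target of erastin, measured 30.1, 30.2 and 31.3 CPM in vehicle, 213, 213 and 195 CPM in erastin-R and 178, 178 and 172 CPM in RSL3-R libraries. Its log2 fold change was 2.64 ± 0.059 (SE), adjusted p = 4.24e-12, the smallest adjusted p among the genes named here. CTH, the last enzyme of transsulfuration, which releases cysteine from cystathionine, measured 3.58, 3.27 and 5.12 CPM in vehicle, 24.8, 23.1 and 27 CPM in erastin-R and 28.3, 31.5 and 29.9 CPM in RSL3-R libraries (2.77 ± 0.13 (SE), adjusted p = 1.53e-09). ADM2, a peptide hormone of the calcitonin family, measured 3.7, 3.03 and 2.78 CPM in vehicle, 14.8, 16.2 and 15.7 CPM in erastin-R and 28.8, 31.9 and 31 CPM in RSL3-R libraries (2.78 ± 0.11 (SE), adjusted p = 5.28e-10). INHBE, an inhibin beta subunit, had only 7 counts over the vehicle libraries, 1 to 3 in each, against 76 over the erastin-R and 307 over the RSL3-R libraries. Scaled to the total counts, the ratio to vehicle was 11.1 for erastin-R (95% exact interval 5.13 to 28.5) and 44.7 for RSL3-R (21.4 to 112), intervals that cover counting error only. These genes share the direction but not the size: ADM2 and INHBE were higher in RSL3-R cells, whereas CTH did not differ between the drugs at this threshold.

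**Figure D1:**
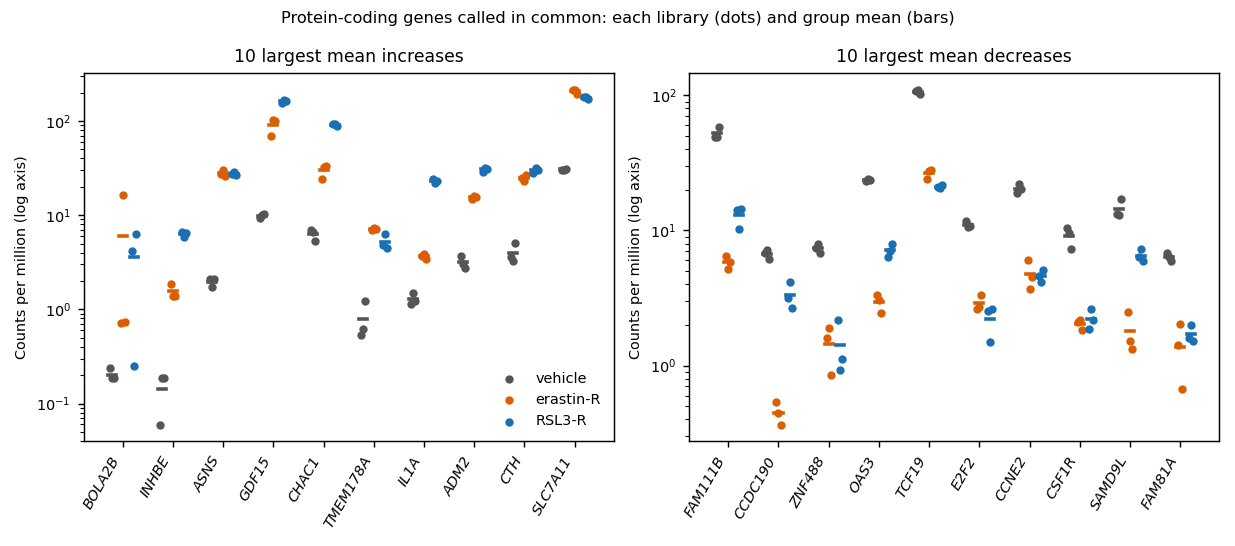
CPM on a log axis for the 10 protein-coding common genes with the largest mean increase (left) and the 10 with the largest mean decrease (right), each dot a library and each bar the mean of 3 libraries. Vehicle dots lie below all drug dots on the left and above all on the right, while BOLA2B spreads from 0.715 to 16.5 CPM within erastin-R.

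TMEM178A, a membrane protein, and IL1A, the alpha form of interleukin-1, completed the leading increases with log2 fold changes of 2.93 and 2.84. BOLA2B had the largest fitted change (4.45 ± 1.39 (SE), adjusted p = 0.0153), but 91.8% of its sequence words of 50 bases recur in other genes, and its libraries ranged from 0.715 to 16.5 CPM for erastin-R and from 0.249 to 6.31 CPM for RSL3-R. It lost the call without any 1 of the vehicle libraries. It has a near-identical copy, BOLA2, and its counts are uncertain.

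The genes that ATF4 is known to induce were set in 4 lists by role, and 27 of the 53 tested were common higher while none was common lower. The background is 4.08% of all genes. Of the 27, 22 had a promoter in the RefSeq table (build GRCh38.p14, 250 bases before to 50 after the start). In 3 of these 22 (13.6%) it held the C/EBP-ATF element TGATGNAA on either strand. Of all 27305 promoters 3.67% held these letters. Those promoter stretches are printed since they show the element in genes that rose in all 6 libraries, with the element in capitals (as TGATGNAA or its reverse complement):
ASNS: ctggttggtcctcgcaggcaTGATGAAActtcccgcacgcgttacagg
ATF3: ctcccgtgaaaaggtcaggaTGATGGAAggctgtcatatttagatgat
CHAC1: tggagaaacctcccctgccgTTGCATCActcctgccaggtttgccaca
They lie at chr7:97872449-97872496 on the minus strand for ASNS, chr1:212565196-212565243 on the plus strand for ATF3 and chr15:40953242-40953289 on the plus strand for CHAC1. The element ends 60, 183 and 201 bases before the start. A match is a description of these letters, and no binding was measured. Other motifs, with letters given below, were searched in the same 22 promoters. The antioxidant response element was in 3 (13.6%, and 13.6% of all promoters) and the AP-1 site in 2 (9.09%, and 4.92%). The sterol element was in 1 (4.55%, and 1.15%) and the E2F element in 2 (9.09%, and 6.9%). With so few promoters these shares do not set the C/EBP-ATF element apart.

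Among the transcription factors and their partners, 9 of 10 tested were common higher, and their log2 fold changes had a median of 1.54 against -0.0051 over all genes. DDIT3, the pro-apoptotic factor CHOP, measured 7.54 ± 0.912 CPM for vehicle, 24.4 ± 2.98 CPM for erastin-R and 33.5 ± 1.65 CPM for RSL3-R (mean ± SD, n = 3) and changed by 1.92 ± 0.11 (SE), adjusted p = 8.45e-09. Of its exons 27% overlap MARS on the opposite strand, and the kit does not mark strand. TRIB3, a pseudokinase that restrains AKT and ATF4, measured 31.2 ± 2.54 CPM for vehicle, 106 ± 15.8 CPM for erastin-R and 223 ± 4.66 CPM for RSL3-R (mean ± SD, n = 3) (2.298 ± 0.093 (SE), adjusted p = 4.69e-10). NUPR1, a stress-induced chromatin protein, measured 6.24 ± 0.453 CPM for vehicle, 16.6 ± 2.76 CPM for erastin-R and 75.2 ± 2.07 CPM for RSL3-R (mean ± SD, n = 3) (2.502 ± 0.11 (SE), adjusted p = 8.3e-10). The position of the libraries was the same for all 3 genes: vehicle lowest, erastin-R in between and RSL3-R highest. ATF3 measured 5.13 ± 1.23 CPM for vehicle, 17.5 ± 1.81 CPM for erastin-R and 17.6 ± 1.99 CPM for RSL3-R (mean ± SD, n = 3), and here the drugs did not differ by the test (0.009 ± 0.14 (SE), adjusted p = 0.965). CEBPB and CEBPG, which pair with ATF4, changed by 1.36 and 1.085, JDP2 by 1.72, KLHL24 by 1.36 and CREBRF by 1.34. ATF5 was the exception, with -0.69 for erastin-R and 0.36 for RSL3-R (adjusted p of the mean 0.211).

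Of 11 amino acid transporters tested, SLC7A11, SLC1A4 and SLC1A5 were common higher, and all 11 passed the adjusted p alone in the upward direction (background 25.4%). SLC1A5, the glutamine carrier, measured 138 ± 6 CPM for vehicle, 308 ± 53.5 CPM for erastin-R and 335 ± 15.3 CPM for RSL3-R (mean ± SD, n = 3) (1.22 ± 0.091 (SE), adjusted p = 9.97e-08). SLC1A4, which carries alanine, serine and cysteine, measured 6 ± 0.173 CPM for vehicle, 9.46 ± 1.33 CPM for erastin-R and 30.3 ± 0.903 CPM for RSL3-R (mean ± SD, n = 3) (1.495 ± 0.11 (SE), adjusted p = 7.78e-08). The increase of SLC1A4 was mainly that of RSL3-R cells. SLC3A2, the heavy chain that anchors SLC7A11 in the membrane, stayed under the fold limit with 0.88 for erastin-R and 0.98 for RSL3-R. SLC7A3 was not tested, as it had at most 1 count in any library.

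Of 15 tested enzymes of amino acid and one-carbon synthesis 8 were common higher, with a median of 1.08. PHGDH, the first enzyme of serine synthesis, measured 18.4 ± 0.669 CPM for vehicle, 48 ± 4.7 CPM for erastin-R and 87.4 ± 0.908 CPM for RSL3-R (mean ± SD, n = 3) (1.81 ± 0.075 (SE), adjusted p = 5.28e-10), and PSAT1, the next, changed by 1.31. PCK2, the mitochondrial PEP carboxykinase, measured 25.8 ± 1.12 CPM for vehicle, 65.7 ± 14.1 CPM for erastin-R and 123 ± 5.28 CPM for RSL3-R (mean ± SD, n = 3) (1.801 ± 0.12 (SE), adjusted p = 2.35e-08). GPT2, PYCR1 and the mitochondrial folate enzyme MTHFD2 changed by 1.26, 1.15 and 1.03. PSPH, the third serine enzyme, had -0.26 for erastin-R and 1.03 for RSL3-R and was not common. CBS, the step before CTH in transsulfuration, was not tested because of its low counts.

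Of 17 tested brakes on growth and secreted proteins 7 were common higher: INHBE, GDF15, CHAC1, ADM2, SESN2, ERN1 and XBP1. SESN2, which restrains mTORC1 when leucine is low, measured 10.8 ± 0.624 CPM for vehicle, 31.4 ± 2.73 CPM for erastin-R and 54.6 ± 1.93 CPM for RSL3-R (mean ± SD, n = 3) (1.94 ± 0.084 (SE), adjusted p = 7.02e-10). ERN1 encodes the endoplasmic reticulum stress sensor IRE1, which splices XBP1 mRNA, and they changed by 1.66 and 1.06. DDIT4 and VEGFA did not pass the test (0.29 and -0.048). FGF21 was not tested: it had 0 counts in all vehicle and erastin-R libraries and 6, 14 and 14 counts in RSL3-R libraries.

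**Figure D2:**
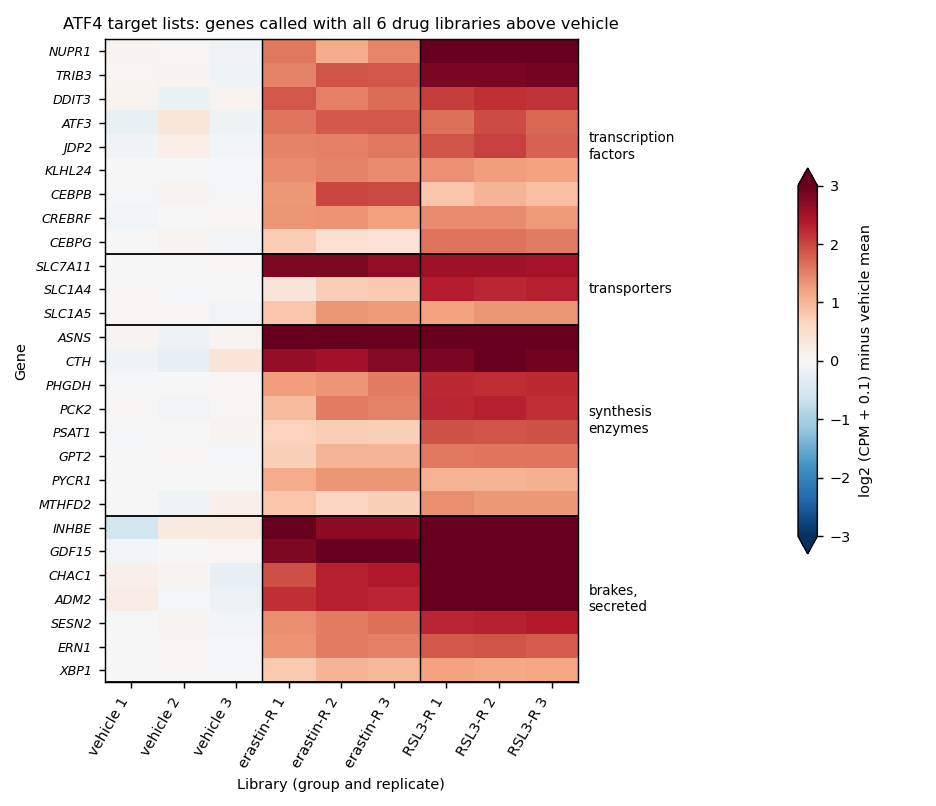
log2(CPM + 0.1) minus the vehicle mean, in each of the 9 libraries (columns), for the 27 common genes of the 4 ATF4 target lists (rows, by role and size of the mean change). All drug columns are red. The RSL3-R columns are darker than the erastin-R columns for NUPR1, SLC1A4 and CHAC1 but not for ASNS, CTH, SLC7A11 or CEBPB. For INHBE both drug groups lie near or beyond the end of the colour scale, so the colours do not show their difference.

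Aminoacyl-tRNA synthetases, which charge tRNAs with amino acids, moved in part. AARS, GARS, SARS and WARS, of 20 cytosolic synthetases tested, were common higher (background 4.08%), with log2 fold changes between 1.06 and 1.29. WARS measured 104, 112 and 109 CPM in vehicle, 178, 158 and 163 CPM in erastin-R and 361, 362 and 387 CPM in RSL3-R libraries. MARS, CARS and YARS stayed just under the fold limit at 0.96, 0.96 and 0.93. FARSA, HARS, QARS and RARS passed the adjusted p in the opposite direction, with FARSA at -0.504. The list median was 0.51.

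Inflammatory genes formed another group of increases. Of 24 tested genes that TNF and NF-κB are known to induce, 8 were common higher (background 4.08%) and none lower: IL1A, IL1B, CXCL8, IL6, PTGS2, CXCL2, CCL20 and SOD2. IL1B, a cytokine made as an inactive precursor, measured 17.4, 22.7 and 21.9 CPM in vehicle, 73.2, 57.4 and 64.4 CPM in erastin-R and 145, 152 and 152 CPM in RSL3-R libraries (2.26 ± 0.098 (SE), adjusted p = 7.02e-10). CXCL8, which attracts neutrophils, measured 12.2, 10.8 and 12.6 CPM in vehicle, 32.9, 34.1 and 35.8 CPM in erastin-R and 79.9, 68 and 75.6 CPM in RSL3-R libraries (2.09 ± 0.084 (SE), adjusted p = 4.68e-10). IL6 measured 6.8, 5.93 and 4.87 CPM in vehicle, 16.2, 15 and 16.5 CPM in erastin-R and 32.3, 31.3 and 31.9 CPM in RSL3-R libraries (1.94 ± 0.11 (SE), adjusted p = 6.8e-09). In each of these genes the erastin-R libraries lay between vehicle and RSL3-R with no overlap. PTGS2, a prostaglandin synthase often read as a marker of ferroptosis, measured 4.79 ± 0.341 CPM for vehicle, 10.8 ± 0.743 CPM for erastin-R and 28.8 ± 1.17 CPM for RSL3-R (mean ± SD, n = 3) (1.88 ± 0.10 (SE), adjusted p = 5.68e-09). The mitochondrial superoxide dismutase SOD2 changed alike in the groups, with 1.15 for erastin-R and 1.19 for RSL3-R. The feedback inhibitors NFKBIA and TNFAIP3 had -0.203 and 0.21, both within a log2 fold change of 1. Leukocyte markers, which could mark another source of cytokines, summed to 8.49 to 9.33 CPM in vehicle, 4.09 to 7.29 CPM in erastin-R and 9.15 to 11.3 CPM in RSL3-R libraries. PTPRC, CD14 and HLA-DRA were the 3 of 11 that reached 1 CPM in a group, none was common, and CD2 and MS4A1 had 0 counts in vehicle. Their part in the result was not tested.

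Immediate early genes, transcribed within minutes of a stimulus, gave 5 common increases of 18 tested (background 4.08%). EGR1, a zinc finger factor downstream of ERK, measured 104, 99.7 and 92.8 CPM in vehicle, 261, 299 and 310.3 CPM in erastin-R and 334, 364 and 346 CPM in RSL3-R libraries (1.69 ± 0.067 (SE), adjusted p = 4.68e-10). JUNB, MAFF, NR4A2 and FOSB changed by 1.19, 1.21, 1.29 and 1.19. JUNB shares 14% of its exons with HOOK2 on the opposite strand. FOS itself had -0.42 for erastin-R and -0.18 for RSL3-R, so the list did not move as one. KLF4, EGR2 and NR4A3 were called without all 6 libraries on one side, and KLF4 had 0.21 for erastin-R and 1.86 for RSL3-R.

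Outputs of the MAPK pathway were also among the increases, with 5 of 23 tested common higher (background 4.08%) and none lower. DUSP5, a nuclear phosphatase of ERK, measured 82, 77.1 and 76.4 CPM in vehicle, 234, 285 and 284 CPM in erastin-R and 176, 175 and 169.5 CPM in RSL3-R libraries (1.46 ± 0.069 (SE), adjusted p = 1.6e-09). IER3 and EGR1 belong to this list too, as do the EGF receptor ligand AREG (1.07) and MYC. MYC measured 197, 191 and 184 CPM in vehicle, 520.3, 575 and 584 CPM in erastin-R and 283, 300.4 and 304 CPM in RSL3-R libraries (1.096 ± 0.056 (SE), adjusted p = 2.82e-09), with the higher level in erastin-R cells. CCND1, an ERK-driven G1 cyclin, went the other way at -1.05 for erastin-R and -0.36 for RSL3-R, and SPRY1 and ETV4 passed the adjusted p downward with -0.45 and -0.36. ERRFI1, which inhibits EGFR, changed by 1.02 ± 0.046 (SE), adjusted p = 8.75e-10.

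Of the targets of FOXO factors and PI3K-AKT feedback, TXNIP and BCL6 were common higher and PIK3R3 lower, of 22 tested (backgrounds 4.08% and 3.08%). TXNIP, which binds thioredoxin and limits glucose uptake, measured 306, 302 and 303 CPM in vehicle, 911, 856 and 868 CPM in erastin-R and 1160, 1162 and 1151 CPM in RSL3-R libraries (1.73 ± 0.047 (SE), adjusted p = 3.33e-11). BCL6 measured 42.4 ± 3.38 CPM for vehicle, 139 ± 5.56 CPM for erastin-R and 82.8 ± 2.67 CPM for RSL3-R (mean ± SD, n = 3) (1.34 ± 0.064 (SE), adjusted p = 1.6e-09). PIK3R3, a regulatory PI3K subunit, measured 7.45 ± 0.35 CPM for vehicle, 3.75 ± 0.799 CPM for erastin-R and 2.52 ± 0.499 CPM for RSL3-R (mean ± SD, n = 3) (-1.27 ± 0.16 (SE), adjusted p = 1.18e-05). Genes of kinases of these pathways were near 0: AKT1 had -0.058 (adjusted p = 0.418) and MAPK3 0.092.

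Compared per transcript length, the most abundant common increases were CYR61 with 549 FPKM for vehicle, 1221 for erastin-R and 1125 for RSL3-R, FTH1 with 203 FPKM for vehicle, 888 for erastin-R and 339 for RSL3-R, IER3 with 169 FPKM for vehicle, 306 for erastin-R and 421 for RSL3-R, ERRFI1 with 146 FPKM for vehicle, 273 for erastin-R and 324 for RSL3-R and TXNIP with 82.9 FPKM for vehicle, 239 for erastin-R and 317 for RSL3-R. FPKM values are scaled by gene length and depth, so levels can be compared between genes. CYR61, a matricellular protein induced by YAP and TAZ, changed by 1.09 ± 0.054 (SE), adjusted p = 2.27e-09. It was the only common gene of 14 tested YAP and TAZ targets (background 4.08%). Of the 14 targets 11 passed the adjusted p upward (background 25.4%), and the list median was 0.47.

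NRF2 targets were for the most part higher in erastin-R than in RSL3-R cells. Of 29 tested, SLC7A11, FTH1, ABCC2 and HMOX1 were common higher (background 4.08%), 23 passed the adjusted p upward (25.4%), and the list median was 0.96 for erastin-R and 0.26 for RSL3-R. Of the 29 genes 24 passed the adjusted p between the drugs, 23 of them higher in erastin-R cells (background of any difference 49.2%). HMOX1, which breaks down heme and frees iron, measured 9.48, 8.71 and 8.08 CPM in vehicle, 25.3, 24.3 and 26.6 CPM in erastin-R and 10.8, 13.3 and 12.9 CPM in RSL3-R libraries (1.01 ± 0.10 (SE), adjusted p = 1.82e-06). It sat at the fold limit and lost the call in 4 of 16 alternative settings (quantile normalization, and without vehicle replicate 3, erastin-R replicate 3 or RSL3-R replicate 2), and a test against the fold limit itself did not call it. NQO1 showed the divergence, at 1.200 for erastin-R and -0.0064 for RSL3-R, and GCLM, a subunit of the enzyme that starts glutathione synthesis, had 1.35 for erastin-R and -0.398 for RSL3-R.

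Iron handling changed on several sides. FTH1, the heavy chain of the iron-storing ferritin, measured 455, 427 and 370.5 CPM in vehicle, 1513, 1967 and 2001 CPM in erastin-R and 649, 801 and 632 CPM in RSL3-R libraries (1.43 ± 0.10 (SE), adjusted p = 8.09e-08). Pseudogenes share 19.9% of its sequence words. FTL, the light chain, stayed under the fold limit with 1.52 for erastin-R and 0.32 for RSL3-R. SLC40A1, the exporter ferroportin, was low and common lower: 3.74 ± 0.37 CPM for vehicle, 1.87 ± 0.367 CPM for erastin-R and 1.85 ± 0.146 CPM for RSL3-R (mean ± SD, n = 3) (-1.01 ± 0.18 (SE), adjusted p = 0.000266). It lost the call in 6 of 15 settings (quantile normalization, total counts without TMM factors, and without vehicle replicate 3, erastin-R replicate 1 or 3, or RSL3-R replicate 2) and in the test against the fold limit. TFRC, the transferrin receptor, was lower in both drug groups but under the limit, with -0.61 for erastin-R and -1.19 for RSL3-R.

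Among 31 tested genes of lipid peroxide defence and ferroptosis, 3 were common higher and 1 lower (backgrounds 4.08% and 3.08%). SAT1, which acetylates polyamines, measured 40.4, 39.8 and 35 CPM in vehicle, 132, 126 and 132 CPM in erastin-R and 100.3, 102 and 106 CPM in RSL3-R libraries (1.59 ± 0.063 (SE), adjusted p = 4.67e-10), and PTGS2 and SLC7A11 are described above. MBOAT1, a lysophospholipid acyltransferase, measured 5.45 ± 0.545 CPM for vehicle, 2.25 ± 0.782 CPM for erastin-R and 2.26 ± 0.787 CPM for RSL3-R (mean ± SD, n = 3) (-1.27 ± 0.22 (SE), adjusted p = 0.000211). GPX4, the target of RSL3, measured 192, 193 and 195 CPM in vehicle, 265, 276 and 285 CPM in erastin-R and 242, 249.6 and 265 CPM in RSL3-R libraries, a log2 fold change of 0.45 ± 0.05 (SE), adjusted p = 4.92e-06 in which every drug library was above vehicle. The lipid enzyme ACSL4 had 0.15 for erastin-R and 0.31 for RSL3-R, and the CoQ reductase AIFM2 had 0.41 for erastin-R and -0.38 for RSL3-R. The list median was -0.14. Of the 31 genes 13 passed the adjusted p downward and 7 upward (backgrounds 26.8% and 25.4%).

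The few common glutathione genes were split, while the list leaned upward. Of the 23 tested 14 passed the adjusted p upward and 4 downward (backgrounds 25.4% and 26.8%), with a list median of 0.36. CHAC1 and GGT1, which both degrade glutathione, were common higher, and CHAC2, the slower relative of CHAC1, was common lower, of 23 tested (backgrounds 4.08% and 3.08%). CHAC2 measured 9.39 ± 0.0224 CPM for vehicle, 4.05 ± 1.24 CPM for erastin-R and 4.68 ± 0.777 CPM for RSL3-R (mean ± SD, n = 3) (-1.11 ± 0.16 (SE), adjusted p = 4.87e-05), and GGT1, which shares 36% of its sequence words with related genes, changed by 1.102 ± 0.15 (SE), adjusted p = 2.98e-05. The synthesis enzymes GCLC and GSS had 0.83 and 0.06.

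Autophagy genes gave 3 common increases: SQSTM1, ULK1 and WIPI1, of 36 tested (background 4.08%), and 20 passed the adjusted p upward (background 25.4%). SQSTM1, the receptor p62 that also binds KEAP1, measured 293, 293 and 270.5 CPM in vehicle, 718, 840.0 and 834 CPM in erastin-R and 534, 584 and 574 CPM in RSL3-R libraries (1.23 ± 0.063 (SE), adjusted p = 3.08e-09). ULK1, the kinase that starts autophagy, measured 67.2 ± 3.19 CPM for vehicle, 146 ± 22 CPM for erastin-R and 151 ± 6.59 CPM for RSL3-R (mean ± SD, n = 3) (1.14 ± 0.085 (SE), adjusted p = 9.74e-08). WIPI1 changed by 1.29, with 24% of its exons under ARSG on the opposite strand. The genes for lysosomal proteins LAMP1 and CTSD had -0.024 and -0.39.

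The unfolded protein response clears misfolded protein from the endoplasmic reticulum, and its list was split. HERPUD1, DNAJB9, ERO1B and XBP1 were common higher of 23 tested (background 4.08%), with log2 fold changes of 1.06, 1.16, 1.197 and 1.06. HSPA5, the main chaperone of the compartment, had 0.699, whereas CALR and CRELD2 had -0.72 and -0.69. The list median was -0.14.

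Cytosolic heat shock proteins, which keep other proteins folded, gave 3 common decreases. Of 18 tested, HSPA1A, HSPA1B and HSPA8 were common lower and none higher, 15 passed the adjusted p downward, and the median was -0.65. Of all genes 3.08% were common lower and 26.8% passed the adjusted p downward. HSPA8, the constitutive chaperone Hsc70, measured 1841, 1950 and 2016 CPM in vehicle, 1061, 833 and 839.6 CPM in erastin-R and 1017, 981 and 1071 CPM in RSL3-R libraries (-1.003 ± 0.07 (SE), adjusted p = 5.22e-08). Its change lay at the fold limit, and it lost the call in 9 of the 16 settings and in the test against the limit. HSPA1B measured 86.9 ± 0.49 CPM for vehicle, 42.7 ± 0.749 CPM for erastin-R and 42 ± 2.64 CPM for RSL3-R (mean ± SD, n = 3), and HSPA1A and HSPA1B share most of their sequence words, so their counts cannot be separated with certainty. HSPH1 and DNAJA1 had -0.89 and -0.92.

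The S phase list held more common decreases than any other of the 33 lists. DNA replication needs the MCM helicase, the GINS complex, the clamp PCNA and its loader, polymerases and enzymes that supply nucleotides, and many of their genes are driven by E2F factors at the G1 to S transition. All 36 genes tested had every drug library below every vehicle library and passed the adjusted p, against a background of 17.7% by position. Of these 22 were common lower (background 3.08%), and the median log2 fold change was -1.08. RRM2, the small subunit of ribonucleotide reductase, measured 90.0, 91.2 and 89.1 CPM in vehicle, 31.8, 30.1 and 30.8 CPM in erastin-R and 21.1, 22.5 and 23.1 CPM in RSL3-R libraries (-1.78 ± 0.055 (SE), adjusted p = 7.48e-11). MCM3 measured 294, 299.8 and 292 CPM in vehicle, 115, 122 and 120.0 CPM in erastin-R and 114, 114 and 117 CPM in RSL3-R libraries (-1.34 ± 0.044 (SE), adjusted p = 1.23e-10), and PCNA 176, 174 and 169 CPM in vehicle, 85.8, 84.8 and 82.9 CPM in erastin-R and 75.2, 71.7 and 76.9 CPM in RSL3-R libraries (-1.13 ± 0.047 (SE), adjusted p = 5.74e-10). MCM3 was at much the same level in both drug groups, whereas RRM2 and PCNA were lowest in every RSL3-R library. Over the list the median was -0.79 for erastin-R and -1.23 for RSL3-R, and 25 of the 36 genes passed the direct test between the drugs, 21 of them lower in RSL3-R cells (background of any difference 49.2%). CDC6 and MCM10, which load and start the helicase, changed by -1.41 and -1.66.

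Some of the factors that drive replication genes were lower as well. E2F2 measured 11.7, 10.7 and 10.8 CPM in vehicle, 2.62, 2.74 and 3.34 CPM in erastin-R and 2.51, 1.49 and 2.63 CPM in RSL3-R libraries (-2.12 ± 0.15 (SE), adjusted p = 6.35e-08), and E2F8 changed by -1.499. E2F1 stayed under the limit with -0.38 for erastin-R and -1.12 for RSL3-R. CCNE2, a cyclin that starts S phase, measured 20.4 ± 1.57 CPM for vehicle, 4.75 ± 1.18 CPM for erastin-R and 4.61 ± 0.461 CPM for RSL3-R (mean ± SD, n = 3) (-2.12 ± 0.13 (SE), adjusted p = 1.3e-08), and INTS8 covers 37% of its exons on the opposite strand. UHRF1, which maintains DNA methylation after replication, measured 179 ± 11.6 CPM for vehicle, 57.1 ± 6.43 CPM for erastin-R and 52.1 ± 2.12 CPM for RSL3-R (mean ± SD, n = 3) (-1.72 ± 0.067 (SE), adjusted p = 4.67e-10). At the low end, MCM7 and RFC4 had -0.39 and -0.46.

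Of the 36 S phase genes 30 had a promoter in the RefSeq table, and 20 of these (66.7%) held the E2F element TTTNNCGC on either strand. Of all promoters 6.9% held it, and of 25 mitosis promoters 3 (12%) did. This motif was chosen after the gene values were seen. The 7 common lower genes with the element at least 20 bases from either end of the 250 bases before the start are printed, with the element in capitals (as TTTNNCGC or its reverse complement):
E2F2: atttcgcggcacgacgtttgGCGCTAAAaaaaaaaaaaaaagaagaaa
GINS2: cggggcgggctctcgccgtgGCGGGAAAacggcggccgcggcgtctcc
MCM3: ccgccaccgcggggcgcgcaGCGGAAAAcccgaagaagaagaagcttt
PCNA: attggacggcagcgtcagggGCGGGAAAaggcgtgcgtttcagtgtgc
POLA1: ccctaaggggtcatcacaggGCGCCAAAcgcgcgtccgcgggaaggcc
TYMS: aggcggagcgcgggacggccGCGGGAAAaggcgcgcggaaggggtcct
UHRF1: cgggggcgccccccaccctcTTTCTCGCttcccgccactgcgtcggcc
They lie, in GRCh38.p14, at chr1:23531244-23531291 (minus strand) for E2F2, chr16:85688958-85689005 (minus) for GINS2, chr6:52284865-52284912 (minus) for MCM3, chr20:5126654-5126701 (minus) for PCNA, chrX:24693761-24693808 (plus) for POLA1, chr18:657594-657641 (plus) for TYMS and chr19:4909369-4909416 (plus) for UHRF1. The other motifs searched were the antioxidant response element TGACNNNGC, the AP-1 site TGACTCA and the sterol element TCACNCCAC. In the S phase promoters they were found in 6, 0 and 0 of 30. A share over all common genes is not given, as 677 of the 1158 had a promoter in the table.

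Mitosis genes were lower in both drug groups and differed in size between them. Of 30 tested 9 were common lower (background 3.08%) and 29 passed the adjusted p downward (26.8%), with a median of -0.46 for erastin-R and -1.30 for RSL3-R. Of the 30 genes 28 were lower in RSL3-R than in erastin-R cells by the direct test (background of any difference 49.2%). KIF11, a spindle motor, measured 165, 165 and 176 CPM in vehicle, 89.3, 76.7 and 70.9 CPM in erastin-R and 56, 53.6 and 52.7 CPM in RSL3-R libraries (-1.37 ± 0.065 (SE), adjusted p = 1.63e-09). MKI67, the proliferation marker Ki-67, measured 704, 724 and 802 CPM in vehicle, 523, 338 and 321 CPM in erastin-R and 235, 247 and 254 CPM in RSL3-R libraries (-1.26 ± 0.11 (SE), adjusted p = 6.78e-07). TOP2A, which untangles sister chromatids, measured 1115, 1126 and 1225 CPM in vehicle, 769, 703 and 664 CPM in erastin-R and 475, 429.8 and 488 CPM in RSL3-R libraries (-1.01 ± 0.058 (SE), adjusted p = 9.4e-09) and lost the call in 7 of the 16 settings and in the test against the fold limit. KIF20A showed the gap between drugs, at -0.85 for erastin-R and -1.94 for RSL3-R. Within erastin-R, replicate 1 kept more MKI67 and NUSAP1 than the other replicates: NUSAP1 measured 28.2, 28.9 and 26 CPM in vehicle, 18.1, 9.8 and 9.61 CPM in erastin-R and 8.96, 7.89 and 8.71 CPM in RSL3-R libraries. CCNB1, the mitotic cyclin, had -0.48 for erastin-R and -1.42 for RSL3-R and missed the fold limit in the mean (-0.95 ± 0.047 (SE), adjusted p = 2.11e-09), and PRC1 did not pass the test (-0.48).

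Hypoxia-induced genes gave 4 common decreases. HIF factors induce these genes when oxygen-dependent prolyl hydroxylases slow down. Of 24 HIF targets tested CA9, EGLN3, LDHA and PFKFB4 were common lower, none was common higher, and 20 passed the adjusted p downward (backgrounds 3.08% common lower and 26.8% downward), with a median of -0.39. LDHA, which reduces pyruvate to lactate, measured 2031, 2021 and 2114 CPM in vehicle, 1033, 1008 and 992 CPM in erastin-R and 865, 825 and 840.5 CPM in RSL3-R libraries (-1.15 ± 0.042 (SE), adjusted p = 2.47e-10). EGLN3, a prolyl hydroxylase that HIF induces, measured 18.2 ± 0.376 CPM for vehicle, 5.36 ± 0.621 CPM for erastin-R and 7.41 ± 0.907 CPM for RSL3-R (mean ± SD, n = 3) (-1.53 ± 0.10 (SE), adjusted p = 4.42e-08). PFKFB4 measured 66.7 ± 2 CPM for vehicle, 32.8 ± 0.66 CPM for erastin-R and 30.9 ± 0.649 CPM for RSL3-R (mean ± SD, n = 3) (-1.07 ± 0.055 (SE), adjusted p = 3.35e-09). CA9, a carbonic anhydrase, was low with 6.07 ± 0.88 CPM for vehicle, 1.17 ± 0.418 CPM for erastin-R and 2.51 ± 0.614 CPM for RSL3-R (mean ± SD, n = 3) (-1.82 ± 0.20 (SE), adjusted p = 4.56e-06), and 38.5% of its exons lie under ARHGEF39 on the opposite strand. The glycolytic enzymes TPI1 and PGAM1 were common lower with -1.03 ± 0.07 (SE), adjusted p = 4.22e-08 and -1.07 ± 0.075 (SE), adjusted p = 6.08e-08, while PGK1 had -0.996. SLC2A3, a glucose transporter, ran against the list at 1.15 for erastin-R and 0.71 for RSL3-R, and VEGFA had -0.048.

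In transcripts per length the most abundant decreases were HSPA8 with 395 FPKM for vehicle, 185 for erastin-R and 209 for RSL3-R, TPI1 with 316 FPKM for vehicle, 142 for erastin-R and 169 for RSL3-R, LDHA with 328 FPKM for vehicle, 160.5 for erastin-R and 135 for RSL3-R, TOP2A with 178 FPKM for vehicle, 109 for erastin-R and 71.6 for RSL3-R and PGAM1 with 181 FPKM for vehicle, 107 for erastin-R and 69.6 for RSL3-R. TPI1 shares 12.6% and PGAM1 30.5% of sequence words with other genes.

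**Figure D3:**
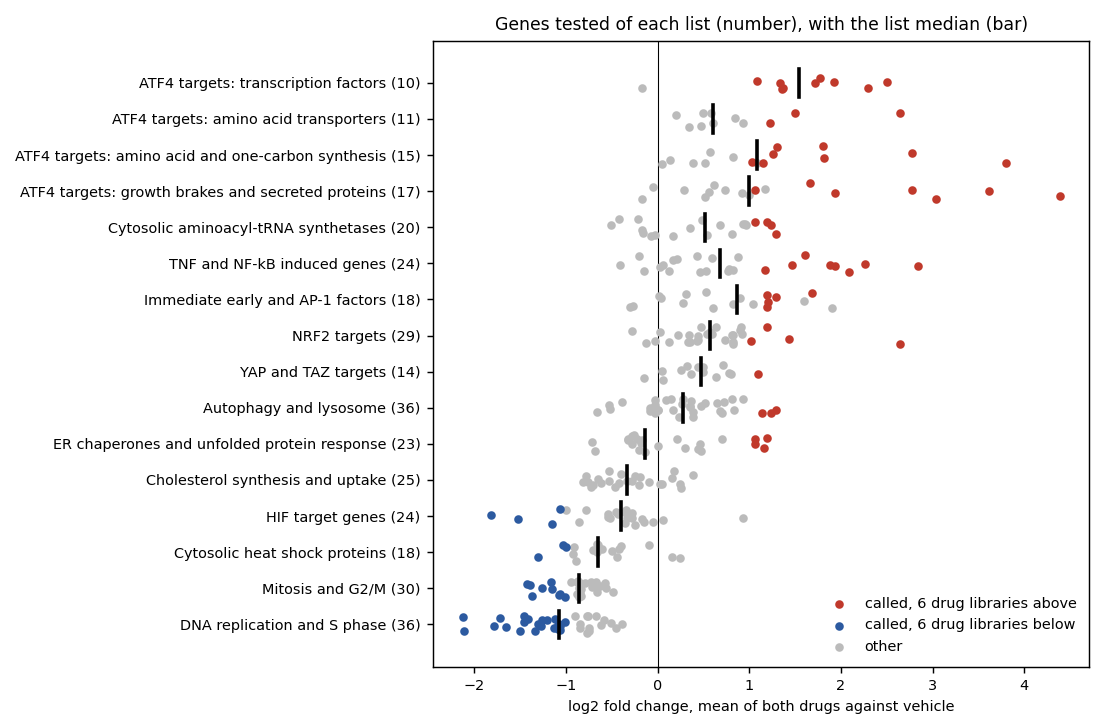
log2 fold change of the mean of both drugs against vehicle (horizontal axis) for each tested gene of 16 lists (vertical axis, number tested in brackets), with the list median as a bar. Red and blue dots are common genes. Every S phase dot lies below 0, and the ATF4 lists hold the largest increases.

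E2F2 and CCNE2 were also among the 10 largest decreases of protein-coding genes. FAM111B, a serine protease, led them and measured 49.5, 49.4 and 58.9 CPM in vehicle, 6.49, 5.22 and 5.84 CPM in erastin-R and 14.2, 10.2 and 14.4 CPM in RSL3-R libraries (-2.59 ± 0.11 (SE), adjusted p = 5.29e-10). TCF19, a growth-regulated nuclear factor, measured 108, 109.7 and 102 CPM in vehicle, 24, 27.4 and 28 CPM in erastin-R and 20.9, 20.5 and 21.7 CPM in RSL3-R libraries (-2.17 ± 0.061 (SE), adjusted p = 3.49e-11). CCDC190 and ZNF488 measured 6.71 ± 0.503 CPM for vehicle, 0.449 ± 0.0857 CPM for erastin-R and 3.34 ± 0.754 CPM for RSL3-R (mean ± SD, n = 3) and 7.36 ± 0.561 CPM for vehicle, 1.46 ± 0.545 CPM for erastin-R and 1.41 ± 0.682 CPM for RSL3-R (mean ± SD, n = 3), with changes of -2.44 and -2.36. CSF1R, the receptor of macrophage colony-stimulating factor, measured 9.13 ± 1.62 CPM for vehicle, 2.02 ± 0.178 CPM for erastin-R and 2.21 ± 0.373 CPM for RSL3-R (mean ± SD, n = 3) (-2.11 ± 0.16 (SE), adjusted p = 8.68e-08). FAM81A changed by -2.06 ± 0.22 (SE), adjusted p = 2.97e-06.

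OAS3 and SAMD9L, both induced by interferon, were among these decreases too. OAS3, which makes the activator of RNase L, measured 23.1, 24 and 23.6 CPM in vehicle, 3.33, 3.05 and 2.43 CPM in erastin-R and 6.38, 7.08 and 8.01 CPM in RSL3-R libraries (-2.36 ± 0.11 (SE), adjusted p = 8.75e-10), and SAMD9L 14.4 ± 2.41 CPM for vehicle, 1.79 ± 0.625 CPM for erastin-R and 6.52 ± 0.677 CPM for RSL3-R (mean ± SD, n = 3) (-2.07 ± 0.16 (SE), adjusted p = 1.13e-07). The interferon list itself did not move one way: OAS3 and GBP1 (-1.25) were common lower of 28 tested (background 3.08%), none was common higher, and the median was 0.017, with -0.39 for erastin-R and 0.28 for RSL3-R.

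Sterol and fatty acid genes seldom reached the fold limit. None of 25 tested genes of cholesterol synthesis and uptake was common in either direction, although 7 had all 6 drug libraries below vehicle (background 17.7%) and none had them above. Their median was -0.69 for erastin-R and 0.015 for RSL3-R. By the direct test 22 of the 25 were higher in RSL3-R than in erastin-R cells (background of any difference 49.2%). At an adjusted p alone 16 were lower and 5 higher in the mean contrast (backgrounds 26.8% and 25.4%). Of 17 genes of fatty acid synthesis, desaturation and elongation 6 had all drug libraries below vehicle and 1 above, and only ACACB, the acetyl-CoA carboxylase of the mitochondrial outer membrane, was common: 11.9 ± 0.405 CPM for vehicle, 6.09 ± 1.25 CPM for erastin-R and 4.28 ± 1.12 CPM for RSL3-R (mean ± SD, n = 3) (-1.22 ± 0.15 (SE), adjusted p = 1.34e-05).

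None of the fatty acid desaturases SCD, FADS1 and FADS2 was called in common, though FADS2 met the position rule. SCD, which makes oleate, measured 889.8, 918 and 941 CPM in vehicle, 574, 572 and 575 CPM in erastin-R and 1187, 1190 and 1178 CPM in RSL3-R libraries, so that the drug groups lay on opposite sides of vehicle and the mean was -0.15 ± 0.042 (SE), adjusted p = 0.00794. FADS2, which desaturates polyunsaturated fatty acids, measured 463, 442 and 437 CPM in vehicle, 174, 205 and 217 CPM in erastin-R and 352, 369 and 360.0 CPM in RSL3-R libraries (-0.74 ± 0.061 (SE), adjusted p = 2.8e-07), under the fold limit though all drug libraries were below vehicle. FADS1 had -0.74 for erastin-R and 0.049 for RSL3-R, and FADS1 and FADS2 overlap on opposite strands. ELOVL5 and ELOVL2 had -0.22 and 0.202, and ELOVL2 was below 1 CPM in all 9 libraries. CNR1, the gene of the cannabinoid receptor CB1, had 0 to 5 counts in the libraries and was not tested. CDKN1A, the CDK inhibitor p21, had -0.14 for erastin-R and 0.21 for RSL3-R (adjusted p of the mean 0.744). In a list of 13 tested genes drawn from the study's text, which does not hold every gene it names, SLC7A11 was common higher and none was common lower.

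In the p53 list BBC3, which encodes the pro-apoptotic PUMA, was common higher and TP53I3 lower, of 18 tested, which is near the background of 4.08% and 3.08%. BBC3 measured 7.63, 8.21 and 6.97 CPM in vehicle, 23.1, 32.5 and 33.5 CPM in erastin-R and 21.1, 26.9 and 23.7 CPM in RSL3-R libraries (1.81 ± 0.14 (SE), adjusted p = 1.24e-07), and TP53I3 6.69 ± 0.931 CPM for vehicle, 2.64 ± 0.758 CPM for erastin-R and 3.08 ± 0.303 CPM for RSL3-R (mean ± SD, n = 3) (-1.23 ± 0.17 (SE), adjusted p = 4.22e-05). Among EMT genes SNAI1, a repressor of E-cadherin, and CLDN1, a tight junction protein, were common higher, of 15 tested (background 4.08%). SNAI1 measured 1.55 ± 0.324 CPM for vehicle, 5.61 ± 0.276 CPM for erastin-R and 2.65 ± 0.225 CPM for RSL3-R (mean ± SD, n = 3) and CLDN1 3.12 ± 0.278 CPM for vehicle, 5.61 ± 0.821 CPM for erastin-R and 16.2 ± 2.64 CPM for RSL3-R (mean ± SD, n = 3). The epithelial and mesenchymal markers CDH1 and VIM had 0.497 and -0.081, neither past the test.

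Several lists held no common gene. These were ribosome biogenesis (30 tested, median -0.24), respiratory chain genes of mitochondrial DNA (13, -0.045), integrins and adhesion (16, 0.11), TGF-beta and SMAD targets (17, -0.008), metallothioneins and zinc transport (13, 0.25) and pentose phosphate and NADPH enzymes (17, -0.0088). Under the fold limit, 19 of the 30 ribosome biogenesis genes passed the adjusted p downward and 1 upward (backgrounds 26.8% and 25.4%). All drug libraries lay below vehicle for 13 of them and above it for 2 (backgrounds 17.7% and 16.9%). Of 27 tested matrix genes 1 was common lower, near the background of 3.08%. This was LAMA4 at -1.27, with 0.852 ± 0.143 CPM for vehicle, 0.247 ± 0.13 CPM for erastin-R and 0.499 ± 0.184 CPM for RSL3-R (mean ± SD, n = 3). The mesenchymal marker list of the line held none of 14. DCN, a fibroblast marker, was common lower from about 1 CPM (0.934 ± 0.136 CPM for vehicle, 0.122 ± 0.105 CPM for erastin-R and 0.209 ± 0.104 CPM for RSL3-R (mean ± SD, n = 3)).

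Among genes that are not protein coding the largest changes were of low level. VLDLR-AS1, antisense to the lipoprotein receptor gene VLDLR, measured 0.179, 0.679 and 0.247 CPM in vehicle, 2.2, 1.72 and 2.61 CPM in erastin-R and 6.38, 5.47 and 7.25 CPM in RSL3-R libraries (3.32 ± 0.33 (SE), adjusted p = 1.52e-06), and it overlaps VLDLR by 12%. FTH1P7 and FTH1P23, processed copies of FTH1, changed by 2.54 and 2.32, and share 40% and 25.8% of their sequence words with other genes, FTH1 rising beside them. The mitochondrial tRNA genes MT-TH and MT-TY changed by -2.46 ± 0.34 (SE), adjusted p = 4.14e-05 and -1.68 ± 0.28 (SE), adjusted p = 0.000182. The study's kit selected poly(A) RNA. AL161891.1 measured 16.3 ± 0.603 CPM for vehicle, 3.17 ± 0.401 CPM for erastin-R and 7.62 ± 0.627 CPM for RSL3-R (mean ± SD, n = 3) (-1.73 ± 0.10 (SE), adjusted p = 1.42e-08).

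The drugs differed in size for many of the common genes. Between RSL3-R and erastin-R cells 595 of the 1158 (51.4%) passed the adjusted p, against 49.2% of all genes, and 205 (17.7%) also reached a log2 difference of 1, against 10.3%. Over all genes that difference was reached upward in RSL3-R cells by 6.86% and downward by 3.48%. Among the common higher genes 45 were at least that much higher in RSL3-R and 58 in erastin-R cells. Among the common lower genes erastin-R cells were the lower group for 74 and RSL3-R cells for 28 by that amount. Common genes were chosen by a mean change of at least 1, and how far that choice raises the 17.7% was not tested. IL1A showed a large gap, with 1.13, 1.48 and 1.23 CPM in vehicle, 3.69, 3.88 and 3.4 CPM in erastin-R and 24.4, 22.1 and 22.8 CPM in RSL3-R libraries, a difference of 2.66 ± 0.13 (SE), adjusted p = 3.1e-09. ASNS and CTH had differences of -0.0076 ± 0.095 (SE), adjusted p = 0.955 and 0.26 ± 0.12 (SE), adjusted p = 0.0804, and for HSPA1B the difference was -0.025 ± 0.068 (SE), adjusted p = 0.786. None of these passed the threshold, which does not show that the drugs acted alike.

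**Figure D4:**
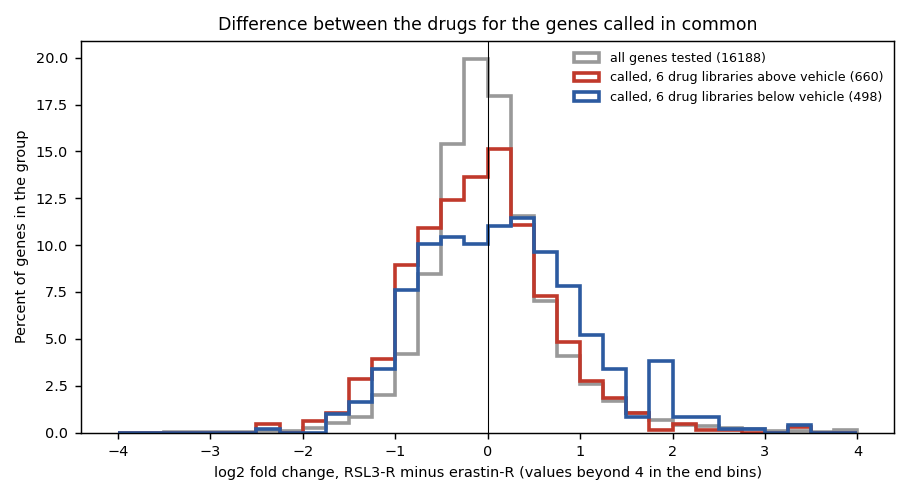
Percent of genes (vertical axis) by log2 fold change of RSL3-R minus erastin-R (horizontal axis) for all 16188 genes tested, the 660 common higher and the 498 common lower genes. The common groups are wider than all genes, with medians of the absolute difference of 0.516 for the common genes and 0.35 for all. They were chosen by a mean change of at least 1, and the effect of that choice on their width was not tested.

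At the edge of the position rule, SLC16A1, a lactate carrier, was just inside: its drug libraries ran from 1.31 to 16.9 CPM and its vehicle libraries from 0.618 to 1.29 CPM, so that erastin-R cells barely cleared vehicle. TM4SF19 was just outside, with a lowest drug library of 2.49 CPM and a highest vehicle library of 2.56 CPM. Downward, NMU was just inside, with a highest drug library of 6.69 CPM under a lowest vehicle library of 6.79 CPM. SDC1 was just outside, at 36.3 CPM in its highest drug and 35 CPM in its lowest vehicle library.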

How the data were processed

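RNA of 9 MDA-MB-231 samples (vehicle, erastin-R and RSL3-R, 3 libraries each) was sequenced from poly(A)-selected, non-directional libraries. Sample labels gave the groups and the replicate numbers. For each gene the authors deposited a raw read count and an FPKM value, and the submitters' processing notes name HISAT2 2.0.5 and featureCounts 1.5.0-p3. The FPKM values the authors deposited were normalized to gene length and library size. The methods state uniquely mapped exonic reads, and whether strand was used is not given in the sources used here. All 58735 gene identifiers and coordinates were those of GENCODE release 29 on GRCh38, and 34018 genes had a count.

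Counts were analysed with edgeR 4.0.16 in R 4.3.3: TMM factors (0.983 to 1.02), filterByExpr (16188 genes), 1 quasi-likelihood model of all 9 libraries without covariate, and contrasts for the mean of both drugs, each drug and RSL3-R minus erastin-R. P-values were adjusted by Benjamini-Hochberg over all genes tested. In simulated counts with 200 changed genes edgeR recovered 199 in the mean contrast. The size of the changes set there and the unchanged genes called are not given here. Error rates in the real libraries were not tested. For a gene with no more than 3 counts in any vehicle library, the ratio of summed counts per total count was given with its exact binomial (Clopper-Pearson) interval, which covers counting error only. Shared sequence was measured as the share of a gene's 50-base words that also occur in transcripts of other genes, and exon overlap from the annotation. Promoters came from RefSeq (GRCh38.p14), matched by Ensembl identifier or symbol.

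The 33 gene lists and 5 marker lists, and the comparison itself, were chosen with earlier results of these data known. Named genes were, among protein-coding common genes with at least 5 CPM in a group, the 10 largest changes and the 5 highest mean FPKM each way and up to 4 members per list, with 3 non-coding genes each way, a list of genes drawn from the study's text and the edges of the position rule. Further members are named where a list is described. Single values of 2 genes are not reported here. Alternatives were DESeq2 1.42.0, limma 3.58.1 with quantile normalization, no TMM, other filters, 1 drug group, a replicate block, a test against the fold limit, no fold limit and each library left out. Libraries with the same number were not closer across groups (mean correlation of deviations -0.039 over 9 pairs, against 0.02 over 18 other pairs), so no pairing was used.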

Additional observations from a re-analysis of the deposited data

Results flagged for a closer look

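Named genes common to both drugs whose size differed between the drugs are given here, by the direct test of RSL3-R minus erastin-R (edgeR quasi-likelihood test, 3 libraries against 3, adjusted p under 0.05 and a log2 difference of at least 1). There were 26.

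Among the common increases, RSL3-R cells were higher for SLC16A1 by 3.44, IL1A by 2.66, NUPR1 by 2.17, INHBE by 2.02, SLC1A4 by 1.68, CHAC1 by 1.60, VLDLR-AS1 by 1.54, CLDN1 by 1.53, PTGS2 by 1.42, IL1B by 1.21, WARS by 1.15, CXCL8 by 1.12 and TRIB3 by 1.08 on the log2 scale. INHBE rests on 1 to 3 vehicle counts, which do not enter this difference. Erastin-R cells were higher for FTH1P23 (-2.28), FTH1P7 (-2.27), FTH1 (-1.40), SNAI1 (-1.08) and HMOX1 (-1.04).

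Among the common decreases, erastin-R cells were lower than RSL3-R cells for CCDC190 by 2.87, SAMD9L by 1.85, OAS3 by 1.28, AL161891.1 by 1.26, FAM111B by 1.15 and CA9 by 1.10. RSL3-R cells were lower for NMU (-1.17) and KIF20A (-1.09).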

How the results depend on the processing

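With a mean FPKM of at least 1, 504 genes were called higher and 364 lower, of which 438 and 328 were common. A test against a log2 fold change of 1 called 170 and 146 (167 and 139 common), and no fold limit gave 4112 and 4334 (2668 and 2807 common). The cause of these shifts is the construction of each setting. DESeq2 gave 661 and 487 common genes, quantile normalization 522 and 483, no filter 715 and 600, and the drugs as 1 group 663 and 419. With the replicate block 853 and 621 genes were called and 657 and 502 common, although the numbers do not pair the libraries. Leaving out 1 library gave 693 to 759 common higher and 506 to 569 common lower genes, and 800 to 919 called higher and 613 to 737 called lower.

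A test against a log2 fold change of 1 left 306 of the 1158 common genes, among them 56 of the 92 named by rule. Beside that test and the one without a fold limit, 16 settings gave values per gene, or 15 for 10 of the 92 that the FPKM filter removed. In these 83 of the 92 kept the call. BOLA2B lost it without each vehicle library, HSPA8 in 9 settings, TOP2A and NMU in 7, HMOX1 in 4, and 1 setting each ended it for LDHA (quantile normalization), TPI1 (without erastin-R replicate 2), HSPA1B (without RSL3-R replicate 3) and GGT1 (without vehicle replicate 3). The single libraries whose removal ended the call were vehicle replicate 3, erastin-R replicates 2 and 3 and RSL3-R replicates 1 and 2 for HSPA8 (-1.068 to -0.821 over all settings), vehicle replicate 3, erastin-R replicate 3 and RSL3-R replicates 1 and 2 for TOP2A (-1.039 to -0.967), and vehicle replicates 1 and 3, erastin-R replicate 1 and RSL3-R replicate 1 for NMU. Of 41 further common list members 34 kept it. CCNE1 lost it in 7 settings, SLC40A1 in 6, MTHFD2 without vehicle replicate 2 or erastin-R replicate 1, LAMA4 without vehicle replicate 1 or with the drugs as 1 group, and BIRC5, CDC20 and TK1 with the drugs as 1 group. The sign turned for ELOVL2 with quantile normalization (-0.0021) and for CDKN1A without vehicle replicate 3 (-0.0026) or erastin-R replicate 2, its values without 1 library ranging from -0.00897 to 0.0915. The other scalings moved the median of all genes by at most 0.02. Depth limits genes under about 5 CPM, among them DCN and LAMA4. For INHBE it limits the vehicle level, which rests on 1 to 3 counts in each library.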

Other observations

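Transcription factors of the bZIP family, which includes ATF4, AP-1 and MAF proteins, gave 9 common increases of 45 tested by the family column of the deposited files, among them DDIT3, ATF3, JDP2, CREB5, MAFF, JUNB, FOSB and XBP1, with log2 fold changes from 1.92 to 1.06. None was common lower. Of all genes tested 4.08% were common higher and 3.08% common lower. The C/EBP family gave 2 of 3, CEBPB at 1.36 and CEBPG at 1.085. Of 10 E2F family genes E2F2 and E2F8 were common lower at -2.12 and -1.499, and none was common higher. The C2H2 zinc finger family gave 10 common higher and 15 common lower genes of 519. Over all 1083 transcription factor genes tested 45 were common higher and 29 common lower (backgrounds 4.08% and 3.08%).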
